A study of Mus musculus with 2 samples.

Results

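Of the 1973 rows of the miRNA gene tables, 6 carry miRNAs known from white blood cells: Mir142b, Mir223, Mir155, Mir146 (the gene of miR-146a), Mir146b and Mir150. They were chosen by name, from Ensembl gene identifiers matched to GENCODE on the mm10 build; the rule uses no measured value, though earlier results of these data were known when it was set. MicroRNA-seq, which sequences RNA in the size range of mature miRNAs, had been run on whole heart of healthy B6NCrl mouse embryos at 13.5 days, males and females pooled. There was 1 group with 2 libraries, labelled as biological replicates of separate biosamples, and the labels name no mutant allele, treatment or control tissue. No source says how many embryos went into each biosample.

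A miRNA is cut from a hairpin in a longer transcript. Its seed, bases 2 to 8 of the mature strand, pairs with target messages and lowers their output. miR-142 is made in nearly all blood cell lineages and in few other cells. miR-223 marks the myeloid lineage, where it restrains granulocyte production. miR-155 and miR-146a are induced in activated macrophages and lymphocytes, miR-155 promoting and miR-146a damping inflammatory signalling. miR-150 accumulates in mature lymphocytes and acts on the transcription factor gene Myb. The embryonic heart receives macrophages from the yolk sac and fetal liver before bone marrow forms blood, and the circulation carries many red cell precursors, whose miRNAs miR-144 and miR-451a depend on the factor GATA1.

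The mature strands below are those of the RefSeq table for GRCm38.p6, with the seed in capitals. They are shown because the counts differ so widely between members that share a locus or a seed. All 7 genes, counting Mir142 on the strand opposite to Mir142b, had at least 1 entry in that table. For Mir150 it lists the 3p strand only, so the 5p strand of Mir150 and its seed are not shown or compared.
miR-142a-5p: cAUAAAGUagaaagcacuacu
miR-142a-3p: uGUAGUGUuuccuacuuuaugga
miR-142b: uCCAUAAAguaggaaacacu
miR-223-3p: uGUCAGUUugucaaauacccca
miR-155-5p: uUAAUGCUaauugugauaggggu
miR-146a-5p: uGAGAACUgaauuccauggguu
miR-146b-5p: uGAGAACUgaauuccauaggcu
miR-150-3p: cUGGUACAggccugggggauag

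Among the 12 mature strands that the table lists for these genes there were 11 seeds, and the only shared one was that of miR-146a-5p and miR-146b-5p. No other mature miRNA of the 1738 in the table had any of these seeds. The miR-146 strands are identical over their first 17 bases and differ by 2 substitutions from miR-146a-5p to miR-146b-5p, G18A and U21C, counted from 1 at the 5′ end. The longest run that any other listed hairpin shares on the same strand was 9 bases for miR-155-5p and 9 for miR-223-3p. The deposited counts are per hairpin gene, so the arms of a hairpin cannot be told apart in them.

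The 2 libraries held 5569959 and 6039005 reads on the strand of a miRNA gene (sense counts), and levels are given as counts per 1000000 of these (CPM). A count of 0 was given a limit of 3 counts, or 0.539 CPM in replicate 1 and 0.497 CPM in replicate 2. Intervals are exact Clopper-Pearson 95% intervals and, like these limits, cover counting error only. A ratio to such a limit takes the other count as observed, without its counting error, and is not an exact interval. Of the heart muscle miRNAs, Mir208b, in an intron of the myosin gene Myh7, was at 42964 CPM on average. The muscle miRNA genes Mir1a-1, Mir133a-1 and Mir133b were only at 4.07, 2.89 and 3.29 CPM. Reads that map to more than 1 place were not counted, and their part in these low levels was not tested.

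The locus of miR-142 was the most abundant of these leukocyte loci, but its reads were in no sense column. The row of Mir142b (ENSMUSG00000065420.2, minus strand, chr11:87756841-87756955) held 0 sense counts in replicate 1 and 0 in replicate 2. The same row held 8659 opposite-strand counts in replicate 1 and 6816 in replicate 2. Mir142 lies there on the plus strand (chr11:87756864-87756927), in an intron of the noncoding gene Mir142hg, and has no row of its own in the tables.

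The hairpins are printed because they overlap on opposite strands, with the mature strands in capitals. The 64 bases of Mir142 are all found as reverse complement within the 115 bases of Mir142b.
Mir142: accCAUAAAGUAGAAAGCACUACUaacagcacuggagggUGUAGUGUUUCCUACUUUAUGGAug
Mir142b: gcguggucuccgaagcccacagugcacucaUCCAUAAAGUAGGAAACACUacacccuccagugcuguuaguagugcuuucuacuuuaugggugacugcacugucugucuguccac

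All 20 bases of miR-142b are the reverse complement of part of miR-142a-3p, which has 23. Only the strand of a read separates miR-142b from miR-142a-3p, while miR-142a-5p lies at other bases of the locus. Counts on the plus strand were at least 2886-fold higher than those on the minus strand in replicate 1 and at least 2272-fold higher in replicate 2, with the minus strand at its limit of 3 counts per library. Opposite-strand counts were found in 41 rows in replicate 1 and 48 in replicate 2. Mir142b ranked 5 and 6 among them, with 2.98% (2.92 to 3.04) and 2.07% (2.02 to 2.11) of all opposite counts. The other 5 leukocyte rows held none in either library.

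**Figure D1:**
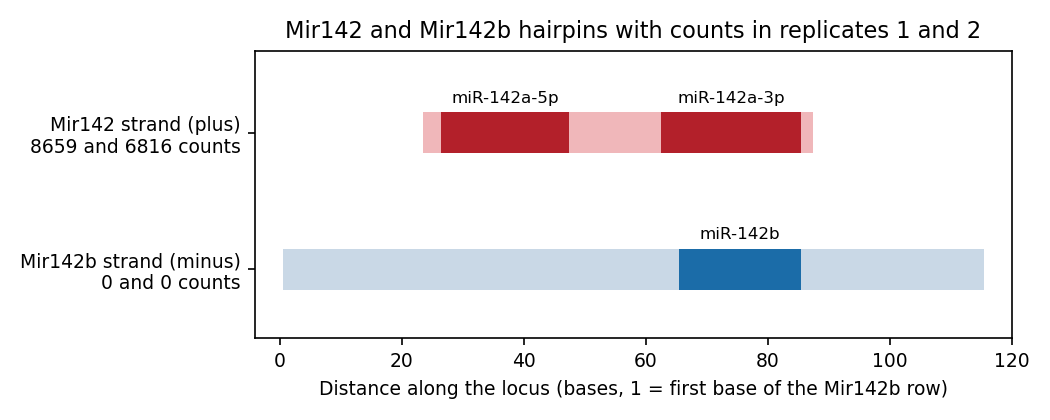
Map of the Mir142 locus, with distance in bases from the first base of the Mir142b row on the horizontal axis and the strands on the vertical axis. Pale bars are hairpins and dark bars mature strands; the 8659 and 6816 counts of replicates 1 and 2 lie on the strand of Mir142 and 0 on that of Mir142b.

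Taken as Mir142, the opposite counts were 1555 CPM (1522 to 1588) in replicate 1 and 1129 CPM (1102 to 1156) in replicate 2, or 1342 ± 301 CPM (SD, n = 2). That level is equal to rank 71 among the sense rows. It was 1.81 times the level of Mir451a, the main red cell miRNA, in replicate 1 and 1.63 times in replicate 2. Mir142 alone made up 69.4% ± 1.06 of the counts of all these leukocyte loci.

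Mir223, the myeloid member (ENSMUSG00000076066.1, plus strand, chrX:96242817-96242926, in an exon of the noncoding transcript F630028O10Rik), had the highest sense level of the 6 rows. It held 2454 counts, 441 CPM (423 to 458), in replicate 1 and 1870 counts, 310 CPM (296 to 324), in replicate 2. Replicate 1 was the higher library, and the mean was 375 ± 92.6 CPM, at rank 115. Mir142 was 3.53-fold above it in replicate 1 and 3.64-fold in replicate 2 (log2 1.84 ± 0.0331). This ratio moved less between the libraries than the level of either gene did.

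Mir155 (ENSMUSG00000065397.1, plus strand, chr16:84714140-84714204) lies in an exon of its host RNA Mir155hg. It held 815 counts, 146 CPM (136 to 157), in replicate 1 and 986 counts, 163 CPM (153 to 174), in replicate 2. Here replicate 2 was the higher library, and the mean was 155 ± 11.99 CPM at rank 157. Mir223 exceeded Mir155 by 3.01-fold (2.78 to 3.26) in replicate 1 and by 1.90-fold (1.75 to 2.05) in replicate 2, so the direction held in both and the size did not (log2 1.26 ± 0.472).

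Mir146 (ENSMUSG00000065601.1, minus strand, chr11:43374397-43374461, within no other annotated transcript of that strand) held 364 counts, 65.4 CPM (58.8 to 72.4), in replicate 1. In replicate 2 it held 209 counts, 34.6 CPM (30.1 to 39.6). The intervals did not overlap, and the mean of 49.98 ± 21.7 CPM had the widest relative spread of the members with more than 2 counts, at 43.5% of the mean. Mir155 was above Mir146 by 2.24-fold in replicate 1 and 4.72-fold in replicate 2 (log2 1.70 ± 0.760).

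Its relative Mir146b (ENSMUSG00000070127.2, plus strand, chr19:46342762-46342870, in an intron of Mfsd13a) held 2 counts in replicate 1 and 0 in replicate 2. Although both carry the seed GAGAACU, nearly all counts lay at Mir146. The Mir146 count was 182 times that of Mir146b in replicate 1 (50.0 to 1509) and at least 69.7-fold higher in replicate 2. Reads that end before base 18 of the 5p strand could not be assigned to either gene, and how many there were was not tested.

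Mir150, the lymphocyte member (ENSMUSG00000065495.1, plus strand, chr7:45121757-45121821, within no other annotated transcript of that strand), held 56 counts, 10.1 CPM (7.59 to 13.1), in replicate 1. It held 52 counts, 8.61 CPM (6.43 to 11.3), in replicate 2. The libraries overlapped within counting error, and the mean was 9.33 ± 1.02 CPM at rank 292. Mir223 was 43.8-fold above Mir150 in replicate 1 (33.6 to 58.2) and 36.0-fold in replicate 2 (27.3 to 48.3), a log2 ratio of 5.31 ± 0.202. The lymphocyte miRNA thus sat far below the myeloid one in both libraries. Mir146 was 6.50-fold above Mir150 in replicate 1 and 4.02-fold in replicate 2.

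The order Mir142, Mir223, Mir155, Mir146, Mir150 was the same in both libraries, with no overlap between neighbours. Mir146b and Mir142b, at 0 to 2 counts, could not be ordered at this depth. In bulk tissue, fewer cells of a type and less miRNA per cell cannot be told apart, so these levels do not count cells.

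**Figure D2:**
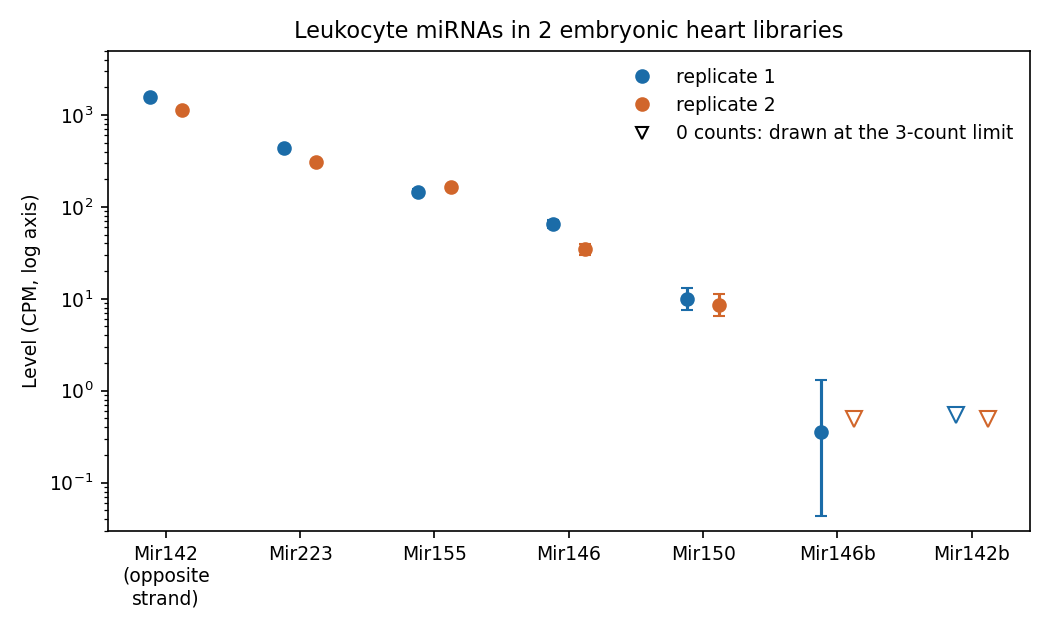
Level of each leukocyte miRNA in CPM (log axis) in replicate 1 (blue) and replicate 2 (orange), with bars for the exact 95% counting interval and open triangles at the 3-count limit for 0 counts. Levels fall from 1555 and 1129 CPM for Mir142 to 10.1 and 8.61 CPM for Mir150.

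Of the 1973 rows, 692 held a sense count in either library and 288 reached a mean of 10 CPM. Mir223, Mir155 and Mir146 were among those 288, and Mir150, at 9.33 CPM, lay just below. The rows closest in level over both libraries, by Euclidean distance in log2(CPM + 1), were Mir374b and Mir203 to Mir223, at distances of 0.10 and 0.15. Mir362 and Mir187 were closest to Mir155, at 0.02 and 0.09. Mir410 and Mir221 were closest to Mir146, at 0.41 and 0.42. With 2 libraries such nearness describes abundance only.

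**Figure D3:**
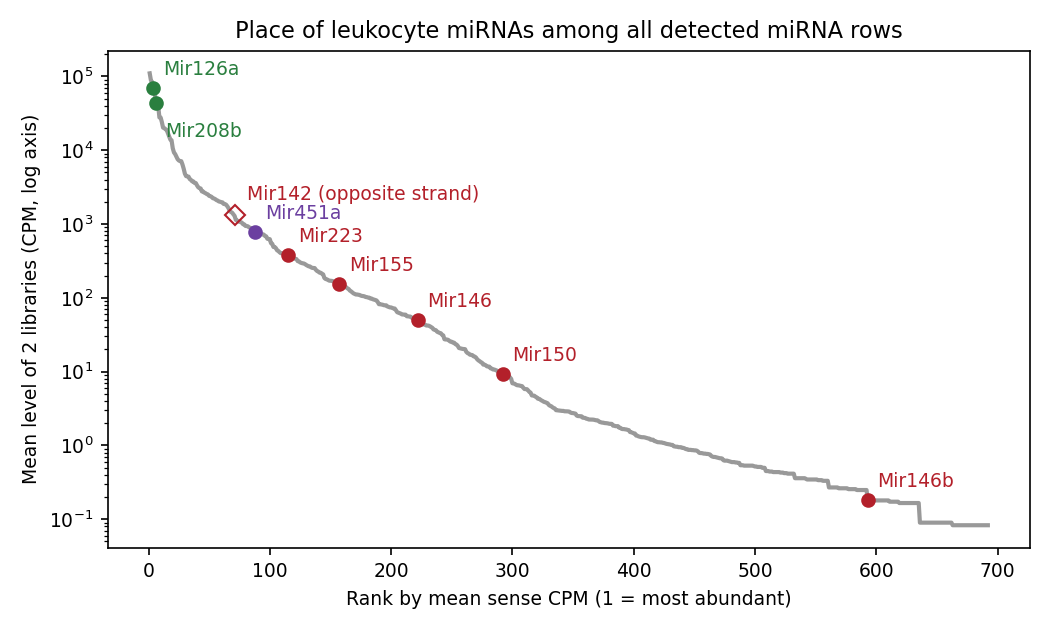
Mean level of the 2 libraries in CPM (log axis) against rank for the 692 miRNA rows with a sense count, in grey. Red points are leukocyte rows, the open diamond is Mir142 from opposite-strand counts at rank 71, purple is the red cell miRNA Mir451a at rank 88, and green are the endothelial Mir126a and the heart muscle Mir208b.

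A further 13 genes with links to leukocytes were listed, and all 13 had a row. The most specific was Mir511, in an intron of the macrophage mannose receptor gene Mrc1. It held 15 counts in replicate 1 and 8 in replicate 2, 2.69 and 1.32 CPM, and Mir223 was 164-fold (99.0 to 293) and 234-fold (118 to 542) above it. Mir147, induced by Toll-like receptor signals in macrophages, held 8 and 15 counts. Both were close to the limit of detection, and their intervals overlapped between the libraries.

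The other 11 genes of that list are made in many tissues besides blood. Mir21a, in an exon of a Vmp1 transcript, was at 17004 ± 1115 CPM and took most of the list's 27547 ± 956 CPM. Mir342, in an intron of Evl and known from lymphoid and myeloid cells, reached 3366 CPM in replicate 1 and 2768 in replicate 2. It was 7.64-fold and 8.94-fold above Mir223. The miR-181 genes, known from lymphocyte development, ran from 20.3 ± 1.52 CPM (Mir181b-1) to 2615 ± 93.1 CPM (Mir181c). Multi-mapping reads stayed out of these counts, and how many each gene copy lost was not tested. Mir29a was at 226 ± 13.7 CPM, Mir132 at 158 ± 0.891 CPM and Mir212 at 13.8 ± 3.84 CPM. Which cells made them cannot be read from whole heart.

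Each gene was then compared between the libraries with a two-sided exact binomial test on its counts, over all 288 genes at 10 CPM with p-values adjusted by the method of Benjamini and Hochberg. Calls required both a 1.5-fold ratio and an adjusted p under 0.05. This compares 1 library with 1 other, not conditions. Its p-values cover counting error only, with PCR copies counted as independent reads, and hold no estimate of the spread between biosamples. So measured, 61.5% of all genes tested had an adjusted p under 0.05, while 5.9% were called and 4.86% were called as higher in replicate 1. Mir146 was the 1 called gene of the 3 leukocyte rows tested, higher in replicate 1 (log2 0.90, adjusted p = 3.66e-13). Mir223 was higher in replicate 1 by less than the ratio required (log2 0.51, adjusted p = 6.60e-30). Mir155 was lower in replicate 1 (log2 -0.16, adjusted p = 0.0355, and from 0.000161 to 0.0713 over the other settings tried, the highest with no CPM minimum). With both strands counted, the row holding Mir142 had a log2 ratio of 0.46 (adjusted p = 8.78e-88 in the exact binomial test) and was not called. Among 296 genes so tested, 63.2% had an adjusted p under 0.05 and 5.74% were called.

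On total counts 65.6% of the 288 genes had a higher level in replicate 1, with a median log2 ratio of 0.10. The median of the 3 leukocyte rows was 0.51, with Mir155 on the other side of 0. With TMM scaling, which lowers every ratio by about that median, Mir223 was at 0.40, Mir146 at 0.80 and Mir155 at -0.26. The genes called higher in replicate 1 were 14 of 17 on total counts and 8 of 16 with TMM. Mir146 kept its call and its direction.

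Like Mir142, Mir223 and Mir146, the red cell miRNAs had more CPM in replicate 1 than in replicate 2. So did 3 of 3 endothelial genes (Mir126a, Mir221 and Mir222, median log2 ratio 0.46) and 65.6% of all 288 genes tested. Of the further leukocyte-linked genes, only 4 of 11 tested were higher in replicate 1 (median log2 ratio -0.07). For heart muscle genes it was 1 of 3, and for smooth muscle genes 0 of 2. Mir451a was at 858 against 692 CPM, Mir144 at 301 against 205 CPM and Mir486 at 102 against 61.9 CPM. Their log2 ratios were 0.31, 0.55 and 0.71, and Mir486 was called (adjusted p = 2.54e-13, exact binomial test). Per count of Mir451a, Mir223 was at 0.514 (0.489 to 0.539) in replicate 1 and 0.447 (0.423 to 0.473) in replicate 2. Mir155 went the other way, from 0.171 (0.158 to 0.184) in replicate 1 to 0.236 (0.220 to 0.253) in replicate 2. Mir144 stood at 0.684 and 0.663 counts per count of Mir223, and these intervals overlapped (0.642 to 0.728 and 0.617 to 0.713).

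The liver miRNA Mir122, like Mir155, was lower in replicate 1: that library had 201 CPM of it and replicate 2 had 591 CPM (log2 -1.55, adjusted p = 1.46e-250, exact binomial test). The fetal liver is the main blood-forming organ at this age and lies close to the heart. The part of liver tissue or of retained blood in the levels of the leukocyte miRNAs was not tested. The library with the higher Mir122 was the one with the lower Mir223, Mir142 and Mir146 and the higher Mir155.

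**Figure D4:**
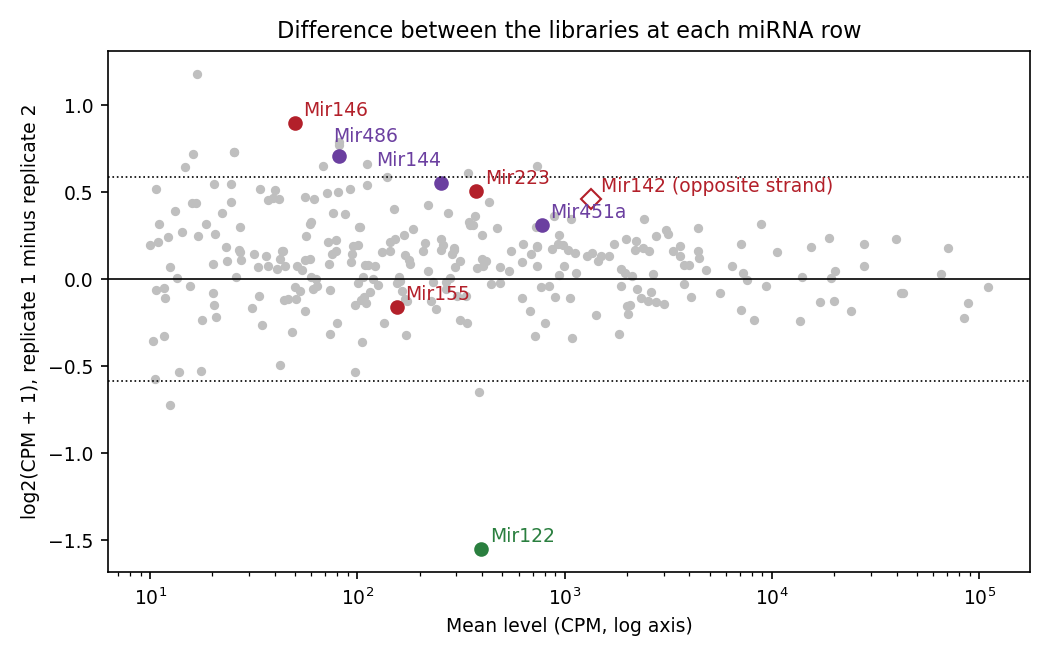
Difference between the libraries, log2(CPM + 1) in replicate 1 minus replicate 2, against mean level in CPM (log axis) for the 288 genes tested, with dotted lines at a ratio of 1.5. Mir223, Mir146 and Mir142 (red) and the red cell miRNAs (purple) lie above 0, while Mir155 at -0.16 and the liver miRNA Mir122 (green) at -1.55 lie below.

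As a sum, the 6 leukocyte rows had 663 CPM in replicate 1 and 516 CPM in replicate 2, or 589 ± 104 CPM. With the counts of Mir142 the sum was 2217 and 1645 CPM, or 1931 ± 405 CPM. The erythroid list (Mir144, Mir451a and Mir486) had 1261 and 959 CPM. It was 1.90-fold and 1.86-fold above the leukocyte rows on sense counts (log2 0.91 ± 0.0237). Once Mir142 was included, the order turned, and the erythroid list was at 0.569 and 0.583 of the leukocyte sum (log2 -0.80 ± 0.0261). Between these 2 lists, which sum was the higher thus rested on the strand at this 1 row. It also depends on the genes listed, since the further leukocyte-linked genes summed to 27547 CPM without Mir142. Which blood cells made Mir142 cannot be read from whole heart.

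Against resident heart cells the order did not depend on the counts of Mir142. The endothelial list, nearly all Mir126a, was 113-fold and 128-fold above the leukocyte rows, and 33.8-fold and 40.2-fold above them with Mir142. The cardiomyocyte list held Mir208a, Mir208b and Mir499, and not the low Mir1a-1 and Mir133a-1. Led by Mir208b, it was 76.5-fold and 103-fold above the leukocyte rows, and 22.9-fold and 32.5-fold with Mir142. The smooth muscle list, nearly all Mir143, was 128-fold and 181-fold above, and 38.4-fold and 56.9-fold with Mir142. Mir122, the 1 gene of the hepatocyte list, was at 0.304 of the leukocyte rows in replicate 1 and 1.14 in replicate 2, so the libraries did not share a direction there. No p is given for these ratios, since the smallest that an exact permutation over 2 libraries allows is 0.5.

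**Figure D5:**
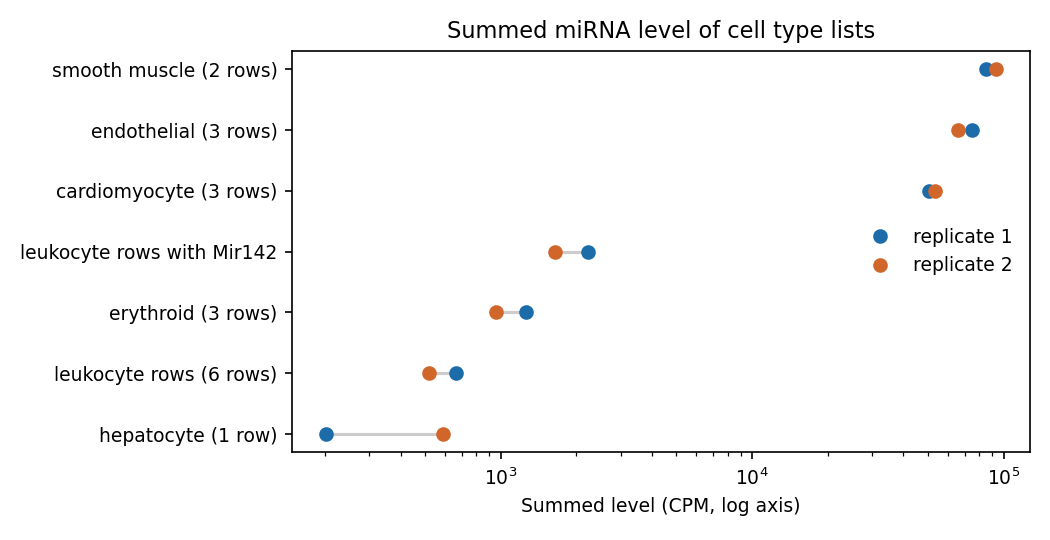
Summed level of each cell type list in CPM (log axis), with a point for replicate 1 (blue) and replicate 2 (orange). The erythroid list, at 1261 and 959 CPM, lies between the leukocyte rows alone and the same rows with Mir142, and the 3 lists of resident heart cells lie far to the right.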

How the data were processed

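The authors deposited whole-number read counts per miRNA gene for each library, made from reads aligned to mm10 and the GENCODE M4 annotation, as the accompanying deposited notes state. The aligner, counter, trimming and strand setting were not given in the sources used here. A table had 1973 gene rows and 4 rows of read classes; unmapped reads were 21.2% and 17.2%, multi-mapping reads 26.9% and 28.0%, and reads in no miRNA gene 3.60% and 2.92% of all reads in replicates 1 and 2, and stayed out of totals. No source used here states the column meaning. At each gene row the first count is the sum of the other columns. Which of these is the sense strand was read from the values and from the rule that set the members. The column taken as sense held 5569959 and 6039005 reads in replicates 1 and 2, and the other 290535 and 330013. The strand given for the Mir142 counts rests on this reading.

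Symbols and coordinates came from GENCODE M21 (1894 identifiers matched) and sequences from RefSeq, both on GRCm38, the assembly named mm10. CPM used total sense counts. Libraries were compared by an exact binomial test with Benjamini-Hochberg adjustment, a minimum mean of 10 CPM and a pseudocount of 1 CPM. It was tried on simulated counts that held counting error only, so that trial cannot cover spread between biosamples. Alternatives were TMM (edgeR 4.0.16) and DESeq2 1.42.0 size factors in R 4.3.3, other minimums, ratios, pseudocounts and strands, and each library left out in turn. Genes named were the members, their 2 closest rows in level, the genes of fixed lists and shared-seed miRNAs. The members and lists were chosen with earlier results of these data known. Python 3.11.15, scipy 1.17.1 and matplotlib 3.10.9 were used.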

Additional observations from a re-analysis of the deposited data

Results flagged for a closer look

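The opposite-strand counts at the Mir142b row lie outside the sense counts that measure every other leukocyte row, and exceed what a count of 0 allows. They were 8659 in replicate 1 and 6816 in replicate 2, on the strand of Mir142.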

How the results depend on the processing

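Of 148 recomputed values, 112 kept their direction and their call, or stayed within the spread between libraries. Part of this tally was fixed in advance, so it does not measure robustness. With 2 libraries, either value always lies within their SD of the mean, so leaving a library out could only reverse a direction or move a bound. The log2 ratio of a gene between the libraries also cannot change with the CPM minimum or the ratio required. The number of genes called between the libraries, 17, was 39 at a minimum of 1 CPM, 45 with no minimum and 2 at a ratio of 2. Those higher in replicate 1, 14, were 27, 31 and 1 under these settings, and 8 with TMM and 8 with DESeq2 factors. The DESeq2 factors were 1 in both libraries, so that setting compares unscaled counts. At a ratio of 2, 0 leukocyte rows were called with the exact binomial test, and Mir146 lost its call there. In that test 3 of 3 leukocyte rows had an adjusted p under 0.05, as did 61.5% of all 288 genes. Mir150, tested only with lower minimums, had a log2 ratio of 0.20 (adjusted p = 0.552 and 0.669 in the exact binomial test).

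On all reads, mean levels were 177 CPM for Mir223, 73.7 for Mir155, 23.5 for Mir146, 4.42 for Mir150 and 634 for Mir142, since the total is larger. Without the most abundant row, Mir155 was at 174 CPM and Mir150 at 10.5 CPM. Adding Mir142 raised the summed level to 1931 CPM. The log2 ratios of lists over the leukocyte rows then became 3.85 (leukocyte-linked), -0.80 (erythroid, reversed), 5.20 (endothelial), 4.77 (cardiomyocyte), -2.47 (hepatocyte) and 5.55 (smooth muscle). With both strands counted they were 3.85, -0.78, 5.20, 4.77, -2.46 and 5.55.

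Leaving a library out gives back the values of the other library, so the ranges below are no further check. With each library left out, levels ran from 310 to 441 CPM (Mir223), 146 to 163 (Mir155), 34.6 to 65.4 (Mir146), 0 to 0.359 (Mir146b), 8.61 to 10.1 (Mir150) and 1129 to 1555 (Mir142), and their sum without Mir142 from 516 to 663. Log2 ratios ran from 5.34 to 5.77 (leukocyte-linked), 0.89 to 0.93 (erythroid), 6.82 to 7.00 (endothelial), 6.26 to 6.69 (cardiomyocyte), -1.72 to 0.19 (hepatocyte, reversed without replicate 1) and 7.01 to 7.50 (smooth muscle). They ran from 0.92 to 1.59 for Mir223 over Mir155, 1.16 to 2.24 for Mir155 over Mir146, 5.17 to 5.45 for Mir223 over Mir150, 1.82 to 1.87 for Mir142 over Mir223 and -1.16 to -0.96 for Mir223 over Mir451a. Bounds ran from 6.12 to 7.51 for Mir146 over Mir146b and 11.15 to 11.50 for Mir142 over Mir142b. A pseudocount of 0.5 counts gave 7.19 and 13.73, which are no bounds. The alternatives for Mir142 and for Mir223 over Mir451a were chosen after seeing the data. Depth limits Mir142b, Mir146b, Mir147 and Mir511, at 0 to 15 counts.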
